A study of Homo sapiens with 10 samples.

Results

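The axon guidance genes described here are the semaphorins, slits, netrins and repulsive guidance molecules, their plexin, neuropilin, ROBO, UNC5 and DCC family receptors, and the SRGAP proteins that bind ROBO receptors inside the cell. They were chosen by gene symbol alone from the annotated table of H3K27ac regions, which assigned each region to the gene with the nearest transcript start. The choice held 326 of the 67387 annotated regions and 42 of the 15633 annotated genes. Of these, 162 regions belonged to 21 ligand genes, 143 regions to 19 receptor genes and 21 regions to 2 SRGAP genes. All 326 regions passed the filter on low counts. The RefSeq gene table listed 55 symbols that fit the choice, and the other 13 are not analysed here.

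H3K27ac, acetylation of lysine 27 of histone H3, was measured by ChIP-seq in cultures of H1975, a human cell line from a lung adenocarcinoma that carries mutant EGFR. The DMSO group was kept for 21 days without drug and then for 3 days in DMSO. The osimertinib DTP (drug-tolerant persister) group received osimertinib, which blocks the mutant receptor's kinase, at 500 nM for 24 days, and the osimertinib DTP + AZD5153 group received 500 nM osimertinib for 21 days and then 150 nM AZD5153, a bivalent BET bromodomain inhibitor, for 3 days. The labels do not say whether osimertinib was kept during the AZD5153 days. Each group had 3 biological replicates of this single line, and 1 input library was shared by all.

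Guidance ligands are secreted or membrane-bound proteins that steer migrating cells and growing axons. Semaphorins signal through plexins, with neuropilins as co-receptors for most class 3 semaphorins, slits signal through ROBO receptors, netrins through DCC and UNC5 receptors, and RGM proteins through neogenin (NEO1). The same proteins act in epithelia, blood vessels and tumours, where they bear on cell motility and adhesion. H3K27ac marks active promoters and enhancers, so a region with more of it is a candidate for an active element and is not a measurement of the gene's RNA.

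Promoter sequences are shown for 4 genes whose promoter regions carried results described below. For SEMA3C both starts are shown because regions near them gave different results. Each is 300 bases of hg38 from RefSeq (GRCh38.p14), printed 5′ to 3′ on the gene's own strand from 250 bases before the start. Capitals mark matches on either strand to the GC box GGGCGG, the CCAAT box, the AP-1 motif TGANTCA, the TEAD motif GGAATG, the E-box CACGTG or the TATA box TATAAA, each chosen as a common promoter or enhancer motif.
PLXNC1, internal start, chr12:94262369-94262668, plus strand: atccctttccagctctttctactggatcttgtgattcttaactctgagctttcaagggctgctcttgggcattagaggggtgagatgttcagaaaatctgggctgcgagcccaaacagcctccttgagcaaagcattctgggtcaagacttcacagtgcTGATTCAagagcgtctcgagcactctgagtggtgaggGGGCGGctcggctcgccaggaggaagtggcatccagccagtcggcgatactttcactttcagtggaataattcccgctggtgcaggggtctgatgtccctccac
RGMB, chr5:98769186-98769485, plus strand: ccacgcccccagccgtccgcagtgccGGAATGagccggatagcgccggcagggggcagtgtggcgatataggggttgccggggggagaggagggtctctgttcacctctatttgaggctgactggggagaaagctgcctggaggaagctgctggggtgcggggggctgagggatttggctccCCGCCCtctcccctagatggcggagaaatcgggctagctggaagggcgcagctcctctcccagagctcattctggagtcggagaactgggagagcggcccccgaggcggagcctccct
PLXNB1, chr3:48429295-48429594, minus strand: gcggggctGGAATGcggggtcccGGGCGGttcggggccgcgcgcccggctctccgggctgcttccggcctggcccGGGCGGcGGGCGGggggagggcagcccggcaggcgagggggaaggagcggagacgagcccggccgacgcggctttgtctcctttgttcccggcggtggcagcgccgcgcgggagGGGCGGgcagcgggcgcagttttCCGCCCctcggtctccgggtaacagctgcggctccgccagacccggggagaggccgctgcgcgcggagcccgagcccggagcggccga
SEMA3C, upstream start, chr7:80922340-80922639, minus strand: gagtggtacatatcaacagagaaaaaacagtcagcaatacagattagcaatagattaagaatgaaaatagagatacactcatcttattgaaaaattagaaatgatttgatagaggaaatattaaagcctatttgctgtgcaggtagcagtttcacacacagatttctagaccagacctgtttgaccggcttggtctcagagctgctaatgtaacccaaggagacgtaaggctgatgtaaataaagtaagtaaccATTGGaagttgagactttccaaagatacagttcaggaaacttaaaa
SEMA3C, downstream start, chr7:80919002-80919301, minus strand: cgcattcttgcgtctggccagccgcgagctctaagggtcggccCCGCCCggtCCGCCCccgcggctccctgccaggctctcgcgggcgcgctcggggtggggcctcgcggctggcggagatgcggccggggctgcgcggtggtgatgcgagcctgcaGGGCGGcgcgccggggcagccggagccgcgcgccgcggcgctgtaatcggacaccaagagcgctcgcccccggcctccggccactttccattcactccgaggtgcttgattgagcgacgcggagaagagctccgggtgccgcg

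The SEMA3C windows differed most in base makeup, with 2 CpG dinucleotides and 1 CCAAT match upstream against 46 CpG and 3 GGGCGG matches downstream. PLXNB1 also had 46 CpG with 5 GGGCGG matches and 1 GGAATG match. RGMB had 18 CpG, 1 GGGCGG match and 1 GGAATG match. The PLXNC1 window had 9 CpG, 1 GGGCGG match and 1 match to TGANTCA. Over all 35116 RefSeq windows the median CpG count was 14, and over the 80 windows of the 46 guidance symbols that had one it was 19.5. GGGCGG occurred in 45.0% of all windows and in 53 of the 80 guidance windows. The other motifs occurred in 34.6% of all windows and 22 guidance windows for CCAAT, 7.71% and 2 for TGANTCA, 7.26% and 3 for CACGTG, and 11.5% and 2 for TATAAA. The letters GGAATG occurred in 4928 of the 35116 windows and in 11 guidance windows. No 2 different motifs overlapped in these windows, and a match is a description of letters only. Among genes with a region, 36 had a RefSeq window, while NRP1, SEMA3A, NTN1 and SEMA6B were among those without one.

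Library totals over all regions ran from 8839536 to 10463351 counts in DMSO, from 8850409 to 9265614 in DTP and from 6263443 to 10064505 with AZD5153, and the input had 1870885. The AZD5153 replicate 3 library stood apart from the others. Its Spearman correlations with the other AZD5153 libraries were 0.445 and 0.367, against 0.888 between those and 0.805 to 0.893 within the other groups. At the guidance genes it was the highest of its group at 59 of 81 promoter regions and the lowest at 146 of 245 other regions. DTP replicate 2 was the highest of its group at 50 of the 81 promoter regions. Region calls, in all and by promoter class, are therefore given with and without the AZD5153 replicate 3 library. Counts by role, by family and of gene sums include it, the sums also as a range over fits that left a library out. All 7 epithelial and lung markers (EPCAM, CDH1, KRT7, KRT8, KRT18, KRT19 and NKX2-1) had a promoter region, with summed levels of 443 to 614 CPM (counts scaled to library size) in DMSO, 466 to 1000 in DTP and 463 to 1030 with AZD5153. Of 10 markers of other cell types, COL1A1, COL1A2, CDH5 and SYT1 had one, with sums of 40.5 to 63.8, 66.5 to 135 and 78.3 to 133 CPM, and PTPRC and CD3E had no region at all. The part of these differences in the results was not tested.

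Of the 326 guidance regions, 81 were promoter regions (within 1 kb of an annotated transcript start), 34 lay in the 1 to 3 kb flank and 211 were distal. Promoter regions were present at 28 of the 42 genes. Because the annotation counts starts of short and internal transcripts, only 46 of the 69 promoter regions of genes with a RefSeq window lay within 1 kb of a RefSeq start. NRP1 had the most regions (47), followed by SEMA4B (31), SEMA3C (22), SRGAP1 (19) and PLXNB2 (16), and 6 genes had a single region. Neighbouring regions are not independent, and merging those within 1000 bp left 165 loci. The median input count of a guidance region was 12 and the highest 31, against up to 708 counts in a H3K27ac library. Each region overlapped a called peak in at least 1 library, and 94 did so in all 9. The number that overlapped a peak was 288, 272 and 274 in the DMSO libraries, 245, 236 and 240 in DTP, and 239, 220 and 180 with AZD5153. The DMSO libraries thus had the most guidance regions with a peak and AZD5153 replicate 3 the fewest. The peak lists held 63667, 58749 and 62255 peaks in DMSO, 64226, 54188 and 70227 in DTP, and 64784, 59702 and 57477 with AZD5153. The same overlap was not counted over all annotated regions, so whether this was particular to guidance regions was not tested. The deposited peak list of DTP replicate 3 bears another cell line's name, and it was used as its sample label of H1975 gives it.

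The comparison of osimertinib DTP with DMSO asks which guidance genes gained or lost H3K27ac after 24 days of osimertinib. More guidance regions fell than rose: 39 (12%) were lower and 19 (5.83%) higher in DTP at an adjusted p threshold of 0.05 (edgeR quasi-likelihood test, Benjamini-Hochberg over all 157919 regions tested), beside 7.22% lower and 6.98% higher of all annotated regions. Among receptors, neuropilins had 12 of 61 regions lower and 0 higher, and plexins had 11 of 57 higher and 5 lower. Among ligands, semaphorins had 13 of 128 regions lower and 5 higher. All 5 lower plexin regions belonged to PLXNA4. Whether families differed from each other was not tested. Outside promoters, 34 of 245 guidance regions (13.9%) were lower and 14 (5.71%) higher, beside 10.2% lower and 9.35% higher among all annotated regions outside promoters. At promoters, 5 of 81 (6.17%) were lower and 5 (6.17%) higher, beside 1.85% and 2.78% of all annotated promoter regions. The fit without AZD5153 replicate 3 called 12 promoter regions (14.8%) lower and 10 (12.3%) higher. Outside promoters it called 81 (33.1%) lower and 24 (9.8%) higher. Over all regions tested it called 12.7% lower and 14.2% higher, and shares by class were not computed for that fit. The median log2 fold change over the guidance regions was -0.10 at promoters and -0.49 elsewhere, against 0.35 and -0.04 over all annotated regions of the same classes.

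By role, ligands had 7 higher and 16 lower regions of 162, receptors 12 and 20 of 143, and the SRGAP genes 0 and 3 of 21. The called regions came from 23 genes, of which 10 had gains only, 12 had losses only and ROBO2 had both. Of the 39 lower regions, NRP1 held 10, SEMA4B 5, PLXNA4 5 and SEMA3C 4. Log2 fold changes of the called regions ran from 1.89 to 4.52 in size for gains and from 1.87 to 4.63 for losses. The 3 DTP libraries did not overlap the 3 DMSO libraries at any of the 58, which was also so at 99.7% of all regions called higher and at 8100 of the 8102 called lower (100% when rounded). Of the 19 higher regions, 16 overlapped no peak in any DMSO library and 19 overlapped a peak in all 3 DTP libraries. Of the 39 lower regions, 39 overlapped a peak in all 3 DMSO libraries and 6 did in all 3 DTP libraries. Among the 268 guidance regions not called, 10 overlapped no DMSO peak. A peak was present in all 3 DMSO libraries at 215 of these and in all 3 DTP libraries at 183. Peaks were called from the same libraries as the counts, so these overlaps are not separate evidence for the calls. Such overlaps were not counted over all called regions. Without the peak list of DTP replicate 3, 19 of the higher and 6 of the lower regions overlapped a peak in both other DTP libraries.

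Most of these calls were lost in at least 1 fit that left a library out. Such a fit also has fewer replicates, and the part of each in the loss was not tested. The count of 58 fell to 3 without DMSO replicate 2, 13 without DMSO replicate 3 and 31 without DMSO replicate 1, and to 28, 14 and 16 without DTP replicates 1, 2 and 3. It rose to 78 without AZD5153 replicate 2 and to 127 (34 higher and 93 lower) without AZD5153 replicate 3, and it was 55 without AZD5153 replicate 1. Calls over all regions tested fell as well, from 8814 higher and 8102 lower with all 9 libraries. They were 3590 and 4615 without DMSO replicate 1 and 1329 and 1837 without DMSO replicate 3. Without DTP replicates 1, 2 and 3 they were 5635 and 2817, 3339 and 1600, and 3010 and 1471. Without AZD5153 replicates 1 and 2 they were 8367 and 7759, and 11508 and 10417. The fit without DMSO replicate 2 called 0.701% of all regions tested, and the fit without AZD5153 replicate 3 called 14.2% higher and 12.7% lower. The 58 regions called with all libraries were all called without AZD5153 replicate 3 as well. Only PLXNA1 chr3:127043588, NRP2 chr2:205748883 and SRGAP1 chr12:64171922 were called in every one of the 9 fits that left a library out. For each region below, the highest adjusted p over those fits is therefore given with the library left out. Equally numbered DTP and DMSO replicates varied together, and with the replicate number as a block 50 of the 58 regions were also called.

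**Figure D1:**
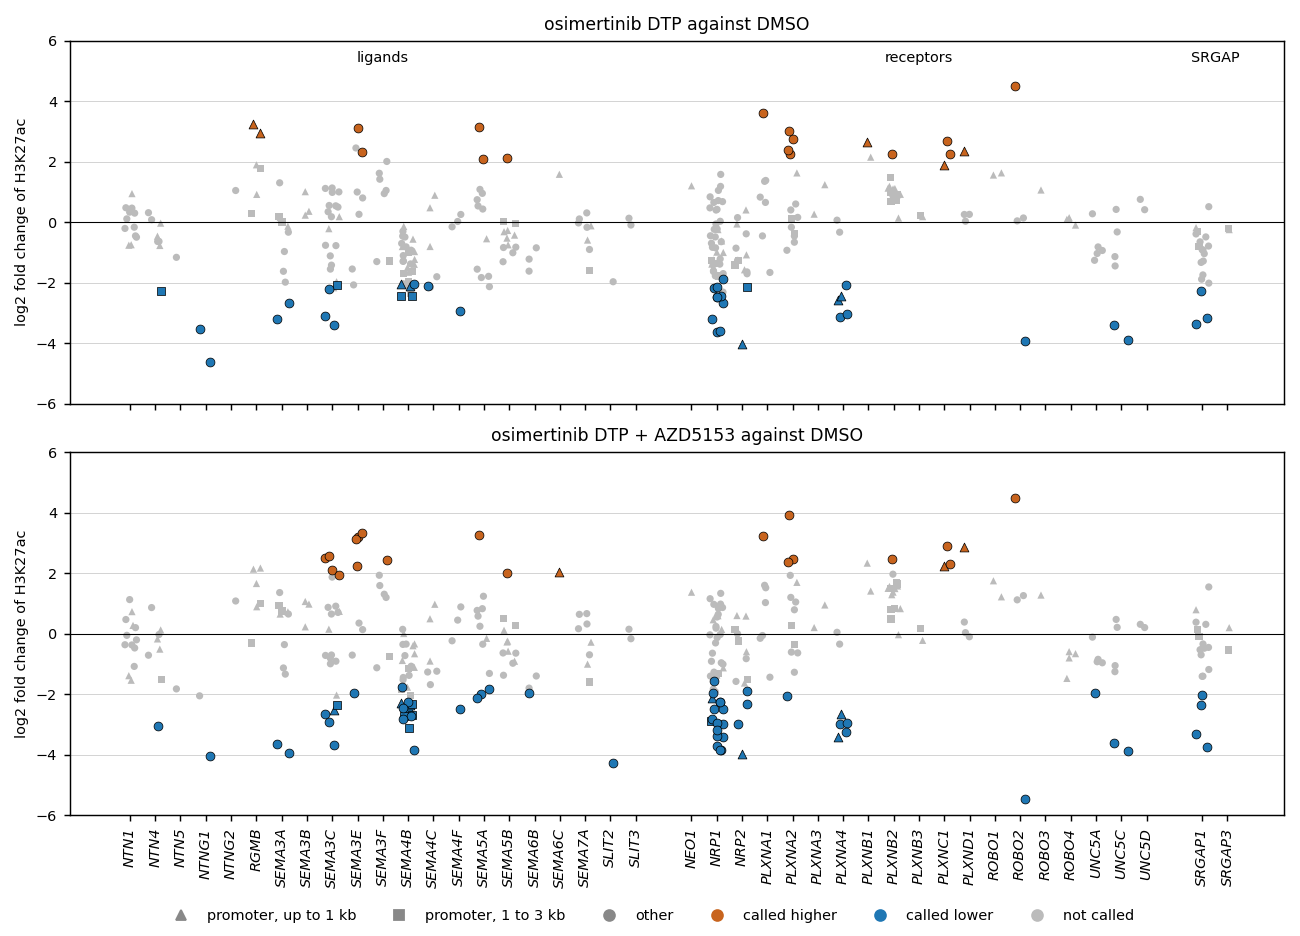
Log2 fold change in H3K27ac (y axis) of all 326 guidance regions by gene (x axis), for DTP against DMSO (top) and for DTP + AZD5153 against DMSO (bottom). Each marker is a region, its shape gives the distance class, and orange and blue markers passed the adjusted p threshold of 0.05 as higher and lower. Neuropilin regions that passed lie below 0, and those of PLXNA1, PLXNB2, PLXNC1 and PLXND1 above 0.

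Neuropilins, which bind class 3 semaphorins and vascular endothelial growth factors, lost H3K27ac in DTP at 10 NRP1 and 2 NRP2 regions. At NRP2 the region chr2:205748883-205749384 had 193, 329 and 200 counts in DMSO, 9, 13 and 17 in DTP and 14, 13 and 8 with AZD5153. All 6 treated libraries were below every DMSO library, with a log2 fold change in DTP of -4.03 ± 0.60 (SE of the fit, n = 3 against 3) and an adjusted p of 0.00279 (0.042 without DMSO replicate 2). This region counts as a promoter region through an internal transcript and lies 66382 bp from the nearest RefSeq start.

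NRP1 chr10:33376939-33377440, at -40677 bp from the annotated start, had 73, 164 and 95 counts in DMSO, 8, 6 and 10 in DTP and 12, 8 and 1 with AZD5153. The log2 fold change in DTP was -3.64 ± 0.66 (adjusted p = 0.00461, and 0.0527 without DMSO replicate 2). The neighbouring NRP1 chr10:33377803-33378304 had 44, 90 and 60 counts in DMSO, 6, 1 and 8 in DTP and 6, 5 and 0 with AZD5153 (-3.59 ± 0.77, adjusted p = 0.00956, and 0.0827 without DMSO replicate 2). In contrast, the promoter region with the most counts, NRP1 chr10:33335248-33335749, had 358, 453 and 334 counts in DMSO, 214, 473 and 91 in DTP and 333, 225 and 573 with AZD5153. Its groups overlapped and it was not called in any comparison.

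**Figure D2:**
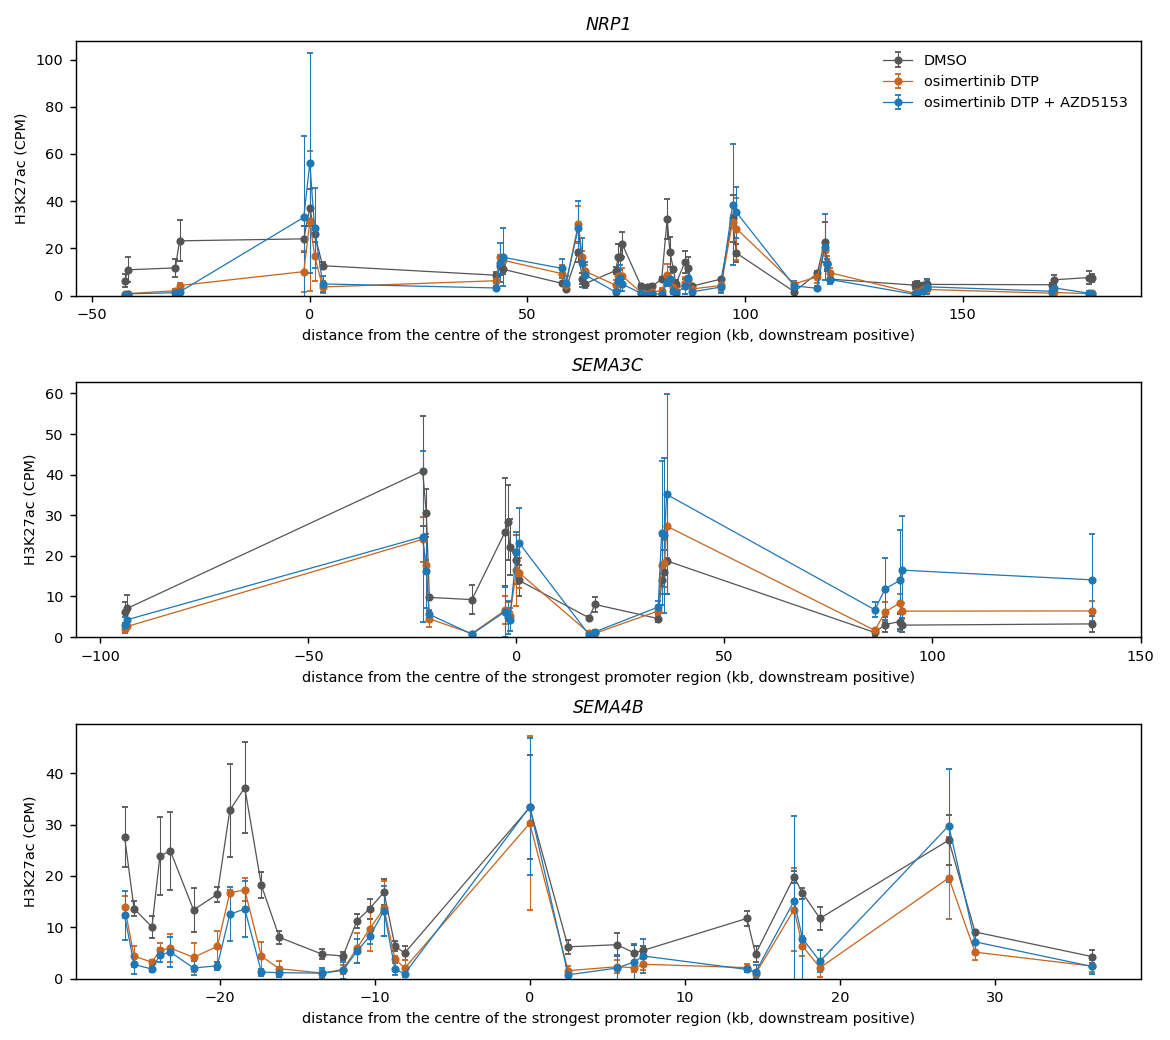
H3K27ac level (CPM, y axis) of the regions of NRP1, SEMA3C and SEMA4B against the distance in kb (x axis) from the gene's promoter region with the most counts. Points are group means and bars the SD of 3 libraries. The 6 treated libraries at the upstream NRP1 regions chr10:33376939 and chr10:33377803 had 0 to 12 counts against 44 to 164 in DMSO, while the 3 groups overlapped at the promoter itself.

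Plexins are the signalling receptors of semaphorins. PLXNA1 chr3:127043588-127044089, at 11733 bp from the start, had 12, 9 and 9 counts in DMSO, 110, 106 and 109 in DTP and 93, 78 and 48 with AZD5153. Every treated library was above every DMSO library, and the log2 fold change in DTP was 3.61 ± 0.56 (adjusted p = 0.00304, and 0.0438 without DMSO replicate 2). PLXNA2 chr1:208086324-208086825, in intron 9 of 31, had 8, 10 and 8 counts in DMSO, 45, 68 and 71 in DTP and 101, 192 and 34 with AZD5153 (3.01 ± 0.64 in DTP, adjusted p = 0.00881, and 0.0662 without DMSO replicate 2). A further PLXNA2 region, chr1:208255044-208255545, had 6, 5 and 8 counts in DMSO and 40, 34 and 43 in DTP (2.76 ± 0.66, adjusted p = 0.0146, and 0.0989 without DMSO replicate 2).

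For PLXNC1, the receptor of SEMA7A, gains were called both upstream and at a promoter region. PLXNC1 chr12:94099867-94100368 had 41, 18 and 8 counts in DMSO, 184, 105 and 92 in DTP and 208, 198 and 20 with AZD5153 (2.69 ± 0.72 in DTP, adjusted p = 0.0248, and 0.145 without DMSO replicate 3). The promoter region chr12:94262496-94262997, which overlaps the PLXNC1 sequence printed above, had 44, 33 and 31 counts in DMSO, 74, 118 and 156 in DTP and 157, 192 and 61 with AZD5153. Its log2 fold change in DTP was 1.89 ± 0.56 (adjusted p = 0.0374, and 0.187 without DMSO replicate 3). No guidance region lay over the other RefSeq start of PLXNC1, at position 94148577.

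PLXNB1, a receptor of SEMA4D, had 13, 6 and 13 counts in DMSO, 43, 89 and 34 in DTP and 20, 14 and 65 with AZD5153 at the promoter region chr3:48428801-48429302. This region overlaps only the last few bases of the sequence printed above. The log2 fold change in DTP was 2.65 ± 0.81 (adjusted p = 0.0432, 0.215 without DTP replicate 2 and 0.071 with the replicate block). The adjoining PLXNB1 region chr3:48429546-48430047 overlaps the first bases of the printed sequence and lies 39 bp from another RefSeq start. It had 33, 26 and 24 counts in DMSO and 69, 185 and 39 in DTP and was not called. PLXND1, the receptor of SEMA3E, had 24, 16 and 19 counts in DMSO, 92, 122 and 37 in DTP and 92, 38 and 147 with AZD5153 at chr3:129560923-129561424, a promoter region of an internal transcript that lies 45252 bp from the nearest RefSeq start. Here the log2 fold change in DTP was 2.35 ± 0.72 (adjusted p = 0.0455, 0.194 without DTP replicate 2 and 0.083 with the block). PLXNB2 chr22:50293655-50294156 had 135, 73 and 91 counts in DMSO and 358, 559 and 261 in DTP (2.25 ± 0.61, adjusted p = 0.0265, 0.148 without DMSO replicate 2 and 0.059 with the block).

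PLXNA4, which pairs with neuropilins in class 3 semaphorin receptors, moved the other way. Its promoter region chr7:132145050-132145551 had 213, 311 and 213 counts in DMSO, 55, 24 and 36 in DTP and 26, 19 and 10 with AZD5153. All treated libraries were below all DMSO libraries (-2.57 ± 0.54 in DTP, adjusted p = 0.0084, and 0.0745 without DMSO replicate 2). The region belongs to a short annotated transcript and lies 430919 bp from the nearest RefSeq start of PLXNA4. The PLXNB2 region, like others below that fall outside the naming rule, was chosen after its values were seen.

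ROBO2, a slit receptor, held the strongest gain and a strong loss. At chr3:77412177-77412678, in intron 3 of 26, the counts were 5, 0 and 3 in DMSO, 22, 41 and 107 in DTP and 33, 112 and 9 with AZD5153. ROBO2 thus rose there by 4.52 ± 0.97 on the log2 scale in DTP (adjusted p = 0.00939, and 0.0712 without DMSO replicate 2). At chr3:76306975-76307476 ROBO2 had 28, 69 and 87 counts in DMSO, 3, 1 and 7 in DTP and 1, 2 and 0 with AZD5153 (-3.93 ± 0.78 in DTP, adjusted p = 0.0068, and 0.0585 without DMSO replicate 2).

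UNC5C, a netrin receptor, had 2 lower regions that lie side by side. UNC5C chr4:95584385-95584886 had 47, 87 and 53 counts in DMSO, 5, 4 and 2 in DTP and 4, 5 and 1 with AZD5153 (-3.89 ± 0.70 in DTP, adjusted p = 0.00439, and 0.0558 without DMSO replicate 2). UNC5C chr4:95584933-95585434 had 36, 62 and 40 counts in DMSO and 9, 2 and 1 in DTP (-3.39 ± 0.81, adjusted p = 0.0152, and 0.117 without DMSO replicate 2). NEO1, the receptor of RGM proteins and netrins, had a single promoter region with 40, 49 and 52 counts in DMSO, 49, 173 and 35 in DTP and 69, 43 and 126 with AZD5153, which was not called.

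The 13 lower semaphorin regions belonged to SEMA3A, SEMA3C, SEMA4B, SEMA4C and SEMA4F. SEMA3C, a secreted class 3 semaphorin, lost H3K27ac at chr7:80929945-80930446, where the counts were 70, 130 and 81 in DMSO, 8, 7 and 9 in DTP and 9, 4 and 4 with AZD5153. The log2 fold change in DTP was -3.39 ± 0.61 (adjusted p = 0.0043, and 0.0512 without DMSO replicate 2). The losses of SEMA3C reached the flank of its upstream start. The flank region of SEMA3C, chr7:80920852-80921353, had 187, 292 and 200 counts in DMSO and 53, 33 and 62 in DTP (-2.08 ± 0.62, adjusted p = 0.041, 0.202 without DMSO replicate 2 and 0.066 with the block). Next to it, the SEMA3C promoter region chr7:80921383-80921884 had 230, 377 and 256 counts in DMSO, 50, 37 and 90 in DTP and 62, 69 and 2 with AZD5153, with an adjusted p of 0.0609 in DTP. Neither region overlaps the printed upstream sequence. The region at chr7:80921969 does, and its values are not given here. No SEMA3C promoter region was called in DTP. At the downstream CpG-rich start the SEMA3C region chr7:80919233-80919734 had 165, 253 and 165 counts in DMSO, 100, 190 and 137 in DTP and 171, 228 and 104 with AZD5153. The groups overlapped there and neither this region nor its neighbour over the start itself, chr7:80918612, was called in any comparison.

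SEMA3A, the ligand of NRP1 with class A plexins, had 90, 175 and 111 counts in DMSO, 23, 13 and 18 in DTP and 11, 8 and 1 with AZD5153 at chr7:84237693-84238194 (-2.67 ± 0.61 in DTP, adjusted p = 0.0116, and 0.0968 without DMSO replicate 2). SEMA4B, a membrane-bound semaphorin with 31 regions, had losses at promoter, flank and intronic regions and no gain. Its promoter region chr15:90160618-90161119 belongs to an annotated transcript start and lies 23801 bp upstream of the nearest RefSeq start. There SEMA4B had 196, 315 and 218 counts in DMSO, 73, 29 and 55 in DTP and 32, 52 and 24 with AZD5153 (-2.12 ± 0.55 in DTP, adjusted p = 0.0212, and 0.144 without DMSO replicate 2). At the RefSeq start itself, SEMA4B chr15:90184470-90184971 had 312, 440 and 271 counts in DMSO, 241, 361 and 183 in DTP and 272, 213 and 255 with AZD5153 and was not called. SEMA4C had 279, 389 and 352 counts in DMSO, 50, 73 and 83 in DTP and 34, 142 and 114 with AZD5153 at chr2:96876101-96876602 (-2.12 ± 0.64 in DTP, adjusted p = 0.0417, and 0.184 without DMSO replicate 2).

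Gains among the semaphorins lay in SEMA5A, SEMA5B and SEMA3E. SEMA5A, a transmembrane semaphorin with thrombospondin repeats, had 32, 14 and 14 counts in DMSO, 146, 127 and 201 in DTP and 236, 253 and 15 with AZD5153 at chr5:9343307-9343808, in intron 3 of 22 (3.16 ± 0.73 in DTP, adjusted p = 0.0129, and 0.0963 without DMSO replicate 2). AZD5153 replicate 3 lay within the DMSO range at this region and the other treated libraries above it. SEMA3E, which binds PLXND1 without a neuropilin, had 6, 4 and 7 counts in DMSO, 39, 27 and 70 in DTP and 57, 82 and 0 with AZD5153 at chr7:83524479-83524980 (3.10 ± 0.94 in DTP, adjusted p = 0.0423, 0.18 without DMSO replicate 2 and 0.083 with the block). SEMA5B chr3:122969842-122970343 had 18, 11 and 12 counts in DMSO and 71, 50 and 37 in DTP (2.12 ± 0.57, adjusted p = 0.0246, and 0.138 without DMSO replicate 3).

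RGMB, a membrane-anchored ligand of neogenin and a co-receptor for bone morphogenetic proteins, gained H3K27ac at 2 promoter regions and had 6 regions in all. RGMB chr5:98770254-98770755 had 22, 5 and 5 counts in DMSO, 148, 87 and 33 in DTP and 41, 14 and 41 with AZD5153. Its log2 fold change in DTP was 3.26 ± 0.78 (adjusted p = 0.0148, and 0.104 without DMSO replicate 2). RGMB chr5:98769226-98769727, over the sequence printed above, had 20, 10 and 10 counts in DMSO, 112, 119 and 30 in DTP and 34, 8 and 70 with AZD5153 (2.95 ± 0.84 in DTP, adjusted p = 0.0327, 0.153 without DMSO replicate 2 and 0.071 with the block). The strongest RGMB promoter region, chr5:98773959-98774460, had 173, 169 and 158 counts in DMSO, 211, 436 and 120 in DTP and 150, 125 and 318 with AZD5153 and was not called.

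**Figure D3:**
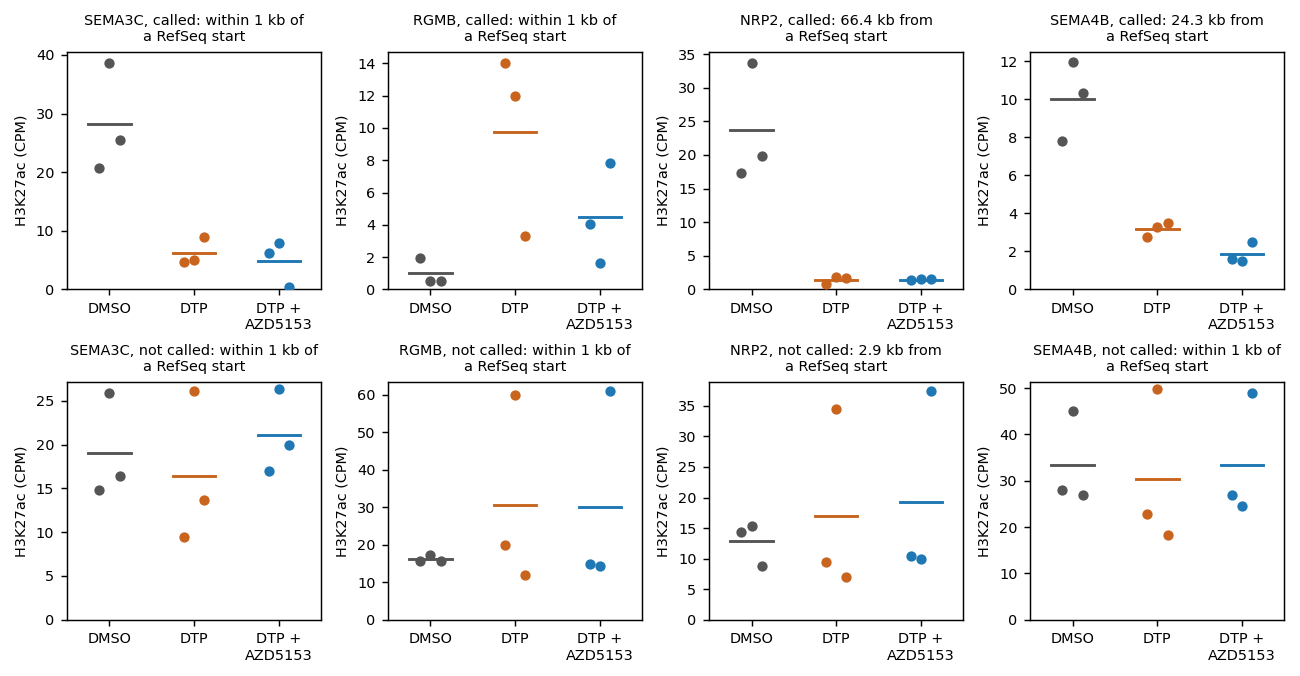
H3K27ac level by library (y axis, CPM) and group (x axis) at promoter regions of SEMA3C, RGMB, NRP2 and SEMA4B. The top row shows, among promoter regions called in either comparison with DMSO, the one with the smallest p. That p is of DTP against DMSO for RGMB and of DTP + AZD5153 against DMSO for the other genes. The bottom row shows the uncalled promoter region with the most counts, points are libraries and lines are group means. For RGMB the DTP counts of 33 to 148 lie above the DMSO counts of 5 to 22 in the top row, while the groups overlap in the bottom row.

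Netrins, counted with the netrin-G proteins NTNG1 and NTNG2, had 3 of 25 regions (12%) lower and 0 higher, beside 7.22% and 6.98% of all annotated regions. Of these 3, 2 belonged to NTNG1 and 1 to NTN4. NTNG1, a membrane-anchored relative that does not bind DCC or UNC5 receptors, had 44, 127 and 79 counts in DMSO, 3, 2 and 4 in DTP and 1, 11 and 0 with AZD5153 at chr1:107164453-107164954, in intron 2 of 7. NTNG1 fell there by 4.63 on the log2 scale in DTP, with an SE of 0.90 (adjusted p = 0.00619, and 0.0598 without DMSO replicate 2). The other NTNG1 region, chr1:107165288-107165789, had 36, 88 and 66 counts in DMSO, 3, 2 and 10 in DTP and 12, 27 and 0 with AZD5153 (-3.53 ± 0.90 in DTP, adjusted p = 0.0204, and 0.117 without DMSO replicate 2). The 3 slit regions, 1 of SLIT2 and 2 of SLIT3, held no called region in DTP. NTN1, the founding netrin, had 13 regions and none was called in either comparison with DMSO.

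SRGAP1, a GTPase-activating protein that acts downstream of ROBO, had 3 lower regions within a stretch of distal regions. SRGAP1 chr12:64171922-64172423 had 105, 197 and 113 counts in DMSO, 13, 11 and 12 in DTP and 14, 13 and 6 with AZD5153. The treated libraries were all below the DMSO libraries (-3.36 ± 0.58 in DTP, adjusted p = 0.00374, and 0.0474 without DMSO replicate 2). At the main SRGAP1 promoter, chr12:63844175, the counts were 384, 404 and 305 in DMSO, 214, 457 and 107 in DTP and 380, 304 and 580 with AZD5153, and the region was not called.

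**Figure D4:**
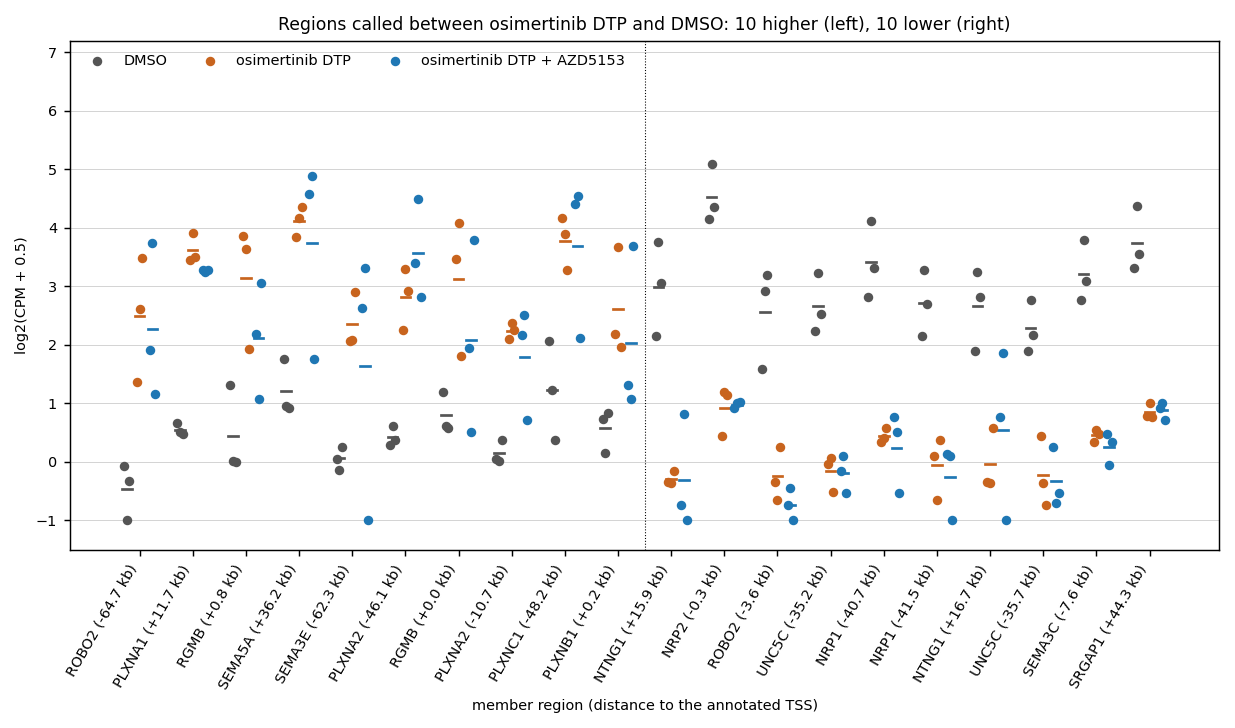
H3K27ac level as log2(CPM + 0.5) (y axis) in each of the 9 libraries at the 10 named regions that rose (left) and the 10 that fell (right) in DTP against DMSO, at most 2 for a gene and direction. The x axis gives the gene and the distance to the annotated start, points are libraries coloured by group and dashes group means. At each region the 3 DTP points lie on the same side of the 3 DMSO points. This was also so at 99.7% of all regions called higher and 100% (rounded) of those called lower.

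The comparison of DTP + AZD5153 with DMSO shares its DMSO libraries with the comparison above, and so its values are given beside those and not as a separate line of evidence. After AZD5153, 64 guidance regions (19.6%) were lower than in DMSO and 22 (6.75%) higher, beside 11.1% and 10.7% of all annotated regions. Outside promoters 56 of 245 (22.9%) were lower and 19 (7.76%) higher, beside 15.5% lower and 13.8% higher among all annotated regions outside promoters. At promoters 8 of 81 (9.88%) were lower and 3 (3.7%) higher, beside 3.18% and 5.33% of all annotated promoter regions. The fit without AZD5153 replicate 3 called 20 promoter regions (24.7%) lower and 5 (6.17%) higher. Outside promoters it called 81 (33.1%) lower and 39 (15.9%) higher. Over all regions tested it called 17.3% lower and 18.4% higher, and shares by class were not computed for that fit. Neuropilins had 21 of 61 regions lower and 0 higher, plexins 6 lower and 9 higher of 57, and semaphorins 26 lower and 12 higher of 128. Ligands together had 12 higher (7.41%) and 29 lower (17.9%) regions, receptors 10 (6.99%) and 31 (21.7%), and the SRGAP genes 0 and 4 (19.0%). In both comparisons with DMSO 33 regions were called lower and 14 higher, and 0 were called in opposite directions.

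The 3 AZD5153 libraries did not overlap DMSO at any of the 64 lower regions or at 15 of the 22 higher regions, beside 99.9% and 78% of all regions called in those directions. At the other 7, which belonged to SEMA3C, SEMA3E and SEMA5A, the AZD5153 replicate 3 library was the low one. Without that library 101 regions (31.0%) were lower and 44 (13.5%) higher, beside 17.3% and 18.4% of all regions tested in that fit, and 85 of the 86 regions were called as well, the exception being SEMA6C. The total of 86 was 64, 39 and 41 without DMSO replicates 1, 2 and 3, 75, 78 and 72 without the DTP replicates, and 58, 78 and 145 without the AZD5153 replicates. Over all regions tested 14294 were higher and 14222 lower with all 9 libraries. These were 7633 and 9603, 3957 and 4542, and 4170 and 5844 without DMSO replicates 1, 2 and 3. Without the DTP replicates they were 12044 and 11335, 13329 and 13465, and 11798 and 11410. Without AZD5153 replicates 1 and 2 they were 8485 and 8206, and 11407 and 11817. Calls at 33 of the 86 regions held in every fit that left a library out, 30 lower and 3 higher.

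Most of the strongest losses were those named above. For ROBO2 chr3:76306975 the log2 fold change was -5.48 ± 0.91 (adjusted p = 0.00173, and 0.018 without DMSO replicate 2). For NRP2 chr2:205748883 it was -3.99 ± 0.61 (adjusted p = 0.00127, and 0.017 without DMSO replicate 2), for SEMA3A chr7:84237693 -3.96 ± 0.66 (adjusted p = 0.00166, and 0.0185 without DMSO replicate 2) and for NTNG1 chr1:107164453 -4.05 ± 0.87 (adjusted p = 0.00556, and 0.045 without DMSO replicate 2). UNC5C chr4:95584385 gave -3.87 ± 0.71 (adjusted p = 0.00238, and 0.0281 without DMSO replicate 2) and NRP1 chr10:33377803 -3.85 ± 0.80 (adjusted p = 0.00467, and 0.0395 without DMSO replicate 2). NRP1 chr10:33365186-33365687 had 186, 323 and 199 counts in DMSO, 58, 25 and 39 in DTP and 14, 23 and 3 with AZD5153. The 3 groups did not overlap there, and NRP1 gave -3.87 ± 0.65 against DMSO (adjusted p = 0.00175, and 0.0187 without DMSO replicate 2).

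Further regions passed the threshold against DMSO after AZD5153, and some of these did not pass in DTP, although AZD5153 libraries were not shown to differ from DTP. SLIT2, a secreted ROBO ligand, had a single region, chr4:20288757-20289258 in intron 4 of 36, with 34, 66 and 29 counts in DMSO, 12, 7 and 11 in DTP and 1, 4 and 0 with AZD5153 (-4.29 ± 0.85 against DMSO, adjusted p = 0.00368, and 0.0397 without DMSO replicate 2). NTN4, a laminin-binding netrin, had 82, 141 and 120 counts in DMSO, 56, 52 and 92 in DTP and 15, 10 and 7 with AZD5153 at chr12:95701099-95701600 (-3.07 ± 0.58, adjusted p = 0.00284, and 0.0258 without DMSO replicate 2). SEMA4B chr15:90167163-90167664 was called in both comparisons, with 199, 154 and 209 counts in DMSO, 73, 10 and 47 in DTP and 16, 4 and 9 with AZD5153 (-3.86 ± 0.70 after AZD5153, adjusted p = 0.00249, and 0.0185 without DMSO replicate 2). SRGAP1 chr12:64170822-64171323 had 75, 63 and 80 counts in DMSO, 10, 4 and 8 in DTP and 6, 7 and 0 with AZD5153 (-3.76 ± 0.73 after AZD5153, adjusted p = 0.00329, and 0.0228 without DMSO replicate 2). The DTP counts there also lay below every DMSO count. At the upstream SEMA3C promoter region chr7:80921383 the log2 fold change was -2.52 ± 0.73 (adjusted p = 0.0247, and 0.11 without DMSO replicate 2).

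Gains after AZD5153 were largest at ROBO2 chr3:77412177, with a log2 fold change of 4.49 ± 0.97 (adjusted p = 0.0058, and 0.0418 without DMSO replicate 2). PLXNA2 chr1:208086324 followed with 3.92 ± 0.66 (adjusted p = 0.00175, and 0.0206 without DMSO replicate 2) and PLXNA1 chr3:127043588 had 3.22 ± 0.56 (adjusted p = 0.00191, and 0.0248 without DMSO replicate 2). PLXNC1 chr12:94099867 had 2.90 ± 0.72 (adjusted p = 0.0117, and 0.0794 without DMSO replicate 3) and PLXND1 chr3:129560923 had 2.85 ± 0.73 (adjusted p = 0.0138, and 0.0803 without DMSO replicate 2). SEMA3E chr7:83529467-83529968, in intron 1 of 16, had 17, 15 and 19 counts in DMSO, 59, 50 and 125 in DTP and 225, 212 and 13 with AZD5153 (3.31 ± 0.74, adjusted p = 0.00662, and 0.0501 without DMSO replicate 2). SEMA5A chr5:9343307 had 3.28 ± 0.73 (adjusted p = 0.00682, and 0.0546 without DMSO replicate 2), with the AZD5153 replicate 3 count of 15 inside the DMSO range.

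SEMA3C carried calls in both directions after AZD5153. In its introns 4 gains were called, of which SEMA3C chr7:80833095-80833596 had 23, 6 and 7 counts in DMSO, 22, 11 and 14 in DTP and 89, 50 and 29 with AZD5153 (2.56 ± 0.62, adjusted p = 0.0104, and 0.0787 without DMSO replicate 3). SEMA3C chr7:80826505-80827006 had 53, 26 and 14 counts in DMSO, 90, 33 and 61 in DTP and 293, 153 and 14 with AZD5153 (2.49 ± 0.73, adjusted p = 0.0268, and 0.141 without DMSO replicate 3). The losses of SEMA3C were near its upstream start and beyond it, where chr7:80929945 gave -3.68 ± 0.63 (adjusted p = 0.00178, and 0.0206 without DMSO replicate 2). SEMA6C, which has a single region at its promoter, had 23, 18 and 16 counts in DMSO, 46, 64 and 35 in DTP and 49, 36 and 74 with AZD5153 (2.05 ± 0.63, adjusted p = 0.0317, 0.143 without DMSO replicate 3 and 0.052 without AZD5153 replicate 3). The RGMB promoter regions called in DTP did not pass after AZD5153, with adjusted p of 0.0608 at chr5:98770254 and 0.0782 at chr5:98769226.

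The comparison of DTP + AZD5153 with DTP asks what AZD5153 changed in persister cells. None of the 326 guidance regions passed the threshold with edgeR, beside 0% of all regions tested, or with DESeq2, beside 0.0442% of all regions. The limma-voom fit with library weights called 13 (3.99%), 6 higher and 7 lower, beside 3.67% of all regions, so the guidance share was close to the background. At an unadjusted p under 0.05 there were 14 guidance regions (4.29%), against 4.44% of all regions. The smallest adjusted p was 0.78, and 0.0605 without AZD5153 replicate 3, a fit that called 0.123% of all regions. The median log2 fold change was 0.03, beside 0.06 over all regions. The 5 regions with the smallest p were NTN4 chr12:95701099, SEMA3C chr7:80833095, NRP1 chr10:33264939, SEMA4B chr15:90167163 and SLIT2 chr4:20288757. At NTN4 the 3 AZD5153 counts of 7 to 15 lay below the 3 DTP counts of 52 to 92, with a log2 difference of -2.43 ± 0.57. NRP1 chr10:33264939-33265440 had 72, 24 and 31 counts in DTP and 11, 9 and 12 with AZD5153, also without overlap. These differences did not pass the correction, which does not show that the groups were alike.

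Counts were also summed for each gene, over promoter regions and over all other regions. For promoter sums 28 guidance genes were tested. In DTP against DMSO, 1 was lower and 0 higher, beside 0.634% lower and 1.07% higher among all genes. PLXNA4 was the 1 lower gene, with promoter sums of 336, 485 and 378 counts in DMSO, 85, 39 and 70 in DTP and 43, 45 and 23 with AZD5153. The PLXNA4 log2 fold change was -2.52 ± 0.55 (adjusted p = 0.0182, 0.168 without DMSO replicate 2 and 0.0879 with the replicate block). After AZD5153 the PLXNA4 promoter sum was again lower than in DMSO (-3.08 ± 0.57, adjusted p = 0.00355, and 0.0442 without DMSO replicate 2). The promoter sums of PLXNC1 (2.24 ± 0.59, adjusted p = 0.0343, and 0.249 without DMSO replicate 3) and PLXND1 (2.85 ± 0.75, adjusted p = 0.0346, 0.214 without DMSO replicate 2 and 0.0676 without AZD5153 replicate 3), each made of a single region, were higher. That made 2 higher and 1 lower, beside 2.37% and 1.1% of all genes.

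Non-promoter sums were tested for 34 guidance genes. In DTP 4 of the 34 were lower and 1 higher, beside 12.5% lower and 11.8% higher among all genes. The guidance share was thus not above that of all genes in either direction, unlike the share of lower regions in the fit over regions. SEMA4B, summed over 21 regions, had 3092, 3121 and 3035 counts in DMSO, 1689, 998 and 1178 in DTP and 1344, 817 and 758 with AZD5153, with the treated libraries all below DMSO (-1.12 ± 0.31 in DTP, adjusted p = 0.0192, and 0.113 without DTP replicate 3). NTNG1 had 80, 215 and 145 counts in DMSO, 6, 4 and 14 in DTP and 13, 38 and 0 with AZD5153 (-4.08 ± 0.93 in DTP, adjusted p = 0.00721, and 0.0575 without DTP replicate 2). SEMA4C had 410, 511 and 528 counts in DMSO and 85, 95 and 124 in DTP (-2.08 ± 0.59, adjusted p = 0.0214, and 0.0982 without DTP replicate 1). SLIT2, with its single region, had a log2 fold change of -1.97 ± 0.59 in DTP (adjusted p = 0.0275, and 0.163 without DMSO replicate 2), although the same region missed the threshold in the fit over regions, at an adjusted p of 0.0793. The gain was in PLXNC1, with 58, 32 and 13 counts in DMSO, 253, 154 and 125 in DTP and 284, 265 and 29 with AZD5153 (2.55 ± 0.68 in DTP, adjusted p = 0.0152, and 0.0788 without DMSO replicate 3).

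After AZD5153, non-promoter sums were lower than in DMSO for 5 of the 34 genes and higher for 1, beside 16.4% and 15.5% of all genes. Again neither guidance share was above that of all genes. SLIT2 had the largest fall of these (-4.28 ± 0.73, adjusted p = 0.00107, and 0.0071 without AZD5153 replicate 1). SEMA4B (-1.27 ± 0.31, adjusted p = 0.00762, and 0.0383 without DMSO replicate 2) and NTNG1 (-2.88 ± 0.87, adjusted p = 0.0216, and 0.0879 without DMSO replicate 2) were lower again. SEMA6B had 406, 560 and 497 counts in DMSO, 204, 239 and 202 in DTP and 126, 99 and 137 with AZD5153 (-1.52 ± 0.47, adjusted p = 0.0231, and 0.0979 without DMSO replicate 2). NTN5, whose sum is a single region with an adjusted p of 0.06 in the fit over regions, had 36, 65 and 48 counts in DMSO, 25, 21 and 13 in DTP and 23, 11 and 2 with AZD5153 (-1.82 ± 0.59, adjusted p = 0.0313, and 0.12 without DMSO replicate 2). PLXNC1 was higher again (2.71 ± 0.68, adjusted p = 0.00843, and 0.0469 without DMSO replicate 3). Between AZD5153 and DTP, 0% of promoter sums and 0% of non-promoter sums over all genes were called. NRP1, with calls at 10 of its 47 regions in DTP, was called in neither sum.

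**Figure D5:**
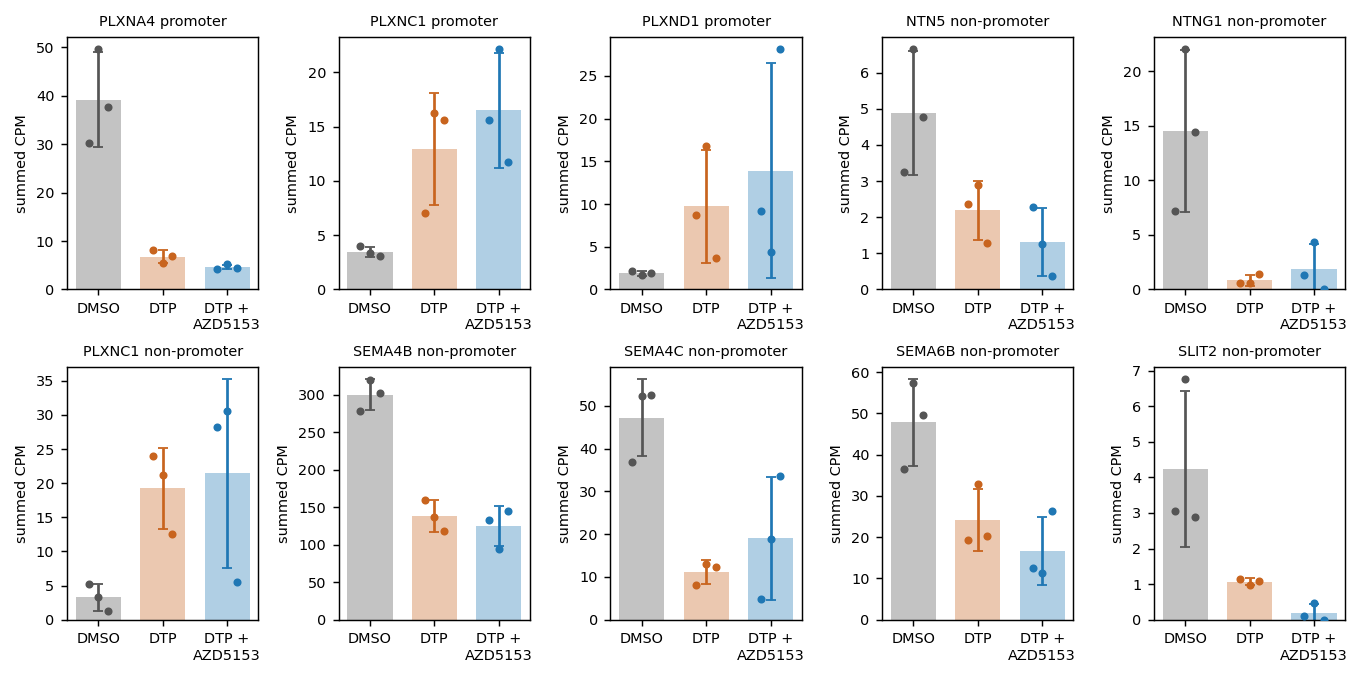
Summed H3K27ac level (y axis, CPM) of the guidance genes with a called promoter or non-promoter sum, by group (x axis). Bars are means of 3 libraries, error bars the SD and points the libraries. SEMA4B non-promoter counts fall from 3035 to 3121 in DMSO to 998 to 1689 in DTP, and PLXNC1 rises in DTP.

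The promoter region with the most counts was taken for each of the 28 genes with one. In DTP 2 of these 28 were called higher and 1 lower, beside 2.29% and 1.27% of such regions over all genes. After AZD5153 3 were higher and 1 lower, beside 4.18% and 1.97%, and 24 were called in neither. A peak was present in all 9 libraries at 18 of them, and their mean level in DMSO ran from 1.83 CPM at SEMA6C to 37.3 CPM at NRP1, both over 502 bp. PLXNC1, PLXND1 and SEMA6C were the higher ones and PLXNA4 the lower one. Of the 42 genes, 14 were called at no region in either comparison with DMSO, among them NTN1, ROBO1, SEMA3B and SLIT3. The same was not counted over all annotated genes.

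The other genes of the guidance pathways, which act inside the cell or beside these receptors, were taken as a list of 50, of which 40 had 418 regions. In DTP 19 of the 418 (4.55%) were higher and 26 (6.22%) lower, both below the 6.98% and 7.22% of all annotated regions, with 1 higher and 2 lower at 105 promoter regions. After AZD5153 48 (11.5%) were higher and 29 (6.94%) lower than in DMSO, beside 10.7% and 11.1% of all annotated regions, and against DTP 0 were called. The median log2 fold change in DTP was 0.24 over these regions and -0.38 over the 326 guidance regions, and the difference was not tested. DOCK1, an activator of Rac, had a distal region with 4, 2 and 3 counts in DMSO, 84, 30 and 52 in DTP and 94, 63 and 20 with AZD5153 (4.26 ± 0.68 in DTP, adjusted p = 0.00315). PTK2, the focal adhesion kinase, was lower at a distal region by -3.47 ± 0.59 (adjusted p = 0.00371) and CAP1, an actin regulator, by -3.70 ± 0.65 (adjusted p = 0.00401). After AZD5153 the smallest p were at NCK2 (-5.61 ± 0.81, adjusted p = 0.0012), MYO9B (5.06 ± 0.75, adjusted p = 0.00122) and DOCK1 (4.50 ± 0.68, adjusted p = 0.00122). These regions of the other pathway genes were not refitted without single libraries.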

How the data were processed

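H3K27ac ChIP-seq read counts deposited by the authors for 169637 regions of 502 bp were used as raw counts, with a table that annotated 67387 of them. The submitters' processing notes name BWA 0.7.17, MACS2 2.2.6, featureCounts 2.0.0, ChIPseeker 1.29.1 and the build hg38, and the parameters are not given in the sources used here. Peaks deposited for each library carried a fold enrichment ratio and a -log10 q, and were called per library. A region and a peak were overlapped at 1 bp or more. Regions were assigned to the nearest transcript start, which need not be the gene that a distal region acts on.

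Counts of the 9 H3K27ac libraries were fitted together in edgeR 4.0.16 (R 4.3.3; filterByExpr with a minimum count of 10, TMM scaling, robust quasi-likelihood test) with a mean per group and no covariate. P-values were adjusted by the Benjamini-Hochberg method over all 157919 regions tested, with a threshold of 0.05, and tests were two-sided. Counts summed per gene were fitted in the same way over all genes. Calls were repeated with DESeq2 1.42.0 and limma 3.58.1 and with other scalings, filters and libraries. The edgeR, limma-voom and DESeq2 fits were tested on simulated counts for DTP against DMSO, and the other steps were not. CPM were counts over library totals scaled by TMM, and depth limits regions with low counts. Replicates came from 1 line, so p-values measure the spread between cultures of it. The least difference between replicates was a chi-square per degree of freedom of 4.29, and no library was counted as a repeat of another.

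Deviations of equally numbered DTP and DMSO libraries from their group means correlated at 0.358, 0.373 and 0.355 (across regions), all above the minimum of 0.1, so that the numbers were taken to pair these groups, from the data and not from a label.

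Named regions were at most 10 per direction by size of log2 fold change and at most 2 per gene, or the 5 with the smallest p where fewer than 5 were called, plus genes with a called sum and the strongest promoter of each gene. Other regions named were chosen after their values were seen. The genes, lists and alternatives were chosen with earlier results of these data known. One of the other cell types' markers is not reported here.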

Additional observations from a re-analysis of the deposited data

How the results depend on the processing

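No called region or gene sum changed direction under any alternative run, and 2278 of 2878 values of the 164 named results kept their direction and their side of the threshold. The 58 regions called between DTP and DMSO became 97 with DESeq2, 155 with limma-voom and library weights, 126 with only the libraries of both groups, 17 at an adjusted p of 0.01, 24 within 10 kb of the start, and 3 to 127 when a library was left out. Calls over all regions tested moved from 8814 higher and 8102 lower to 12018 and 14971 with DESeq2. They were 26664 and 23683 with limma-voom and 19904 and 18752 with only the libraries of both groups. The 86 between DTP + AZD5153 and DMSO became 188 with limma-voom, 57 with only both groups' libraries, 40 at 0.01, 35 within 10 kb, and 39 to 145 without a library. Over all regions tested, 14294 higher and 14222 lower became 37665 and 39254 with limma-voom and 7760 and 8487 with only both groups' libraries. Between AZD5153 and DTP limma-voom called 13 regions and every other alternative 0. Promoter sums called in DTP (1) became 9 with DESeq2 and 0 to 4 without a library, and those after AZD5153 (3) became 8 with DESeq2 and 1 to 4 without a library. Over all 12295 genes DESeq2 called 751 promoter sums higher and 775 lower in DTP, beside 132 and 78 with edgeR. After AZD5153 it called 1320 higher and 1315 lower, beside 292 and 135. Non-promoter sums called in DTP (5) became 8 with DESeq2 and 0 to 12 without a library, and those after AZD5153 (6) ran from 3 to 9 without a library. For all genes DESeq2 called 1731 non-promoter sums higher and 1855 lower in DTP, beside 1105 and 1175 with edgeR. The cause of these shifts was not tested. Counts of regions with a peak moved by less than 1.5 times with a -log10 q of at least 5 or with at least 50% of the region covered.

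With the replicate block, DTP against DMSO gave 58 regions (50 of them also called without it) and promoter sums of 0. It gave 8428 higher and 8008 lower over all regions tested, and 0 promoter sums over all genes. For AZD5153 libraries the correlations with equally numbered libraries were 0.297, -0.050 and -0.306 against DTP and 0.005, 0.534 and 0.337 against DMSO. They were not all above the minimum of 0.1, so the numbers were not taken to pair these groups. An absence of pairing was not shown. The block there gave 85 regions against DMSO, with 7 of the 86 calls lost, and promoter sums of 1. Over all regions tested the block gave 12457 higher and 15182 lower against DMSO, and over all genes 40 higher and 28 lower promoter sums. It changed no other count by more than 1.5 times.

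Where the lowest groups hold 0 to 10 counts, fold changes rest on few reads. Promoter class rests on annotated starts that RefSeq does not always list, and neighbouring regions share signal.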
